A study of Mus musculus with 16 samples.

Results

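Berberine, a plant alkaloid, was compared with no berberine in the livers of mice labelled AKR1B10 knockdown. The comparison holds 8 of the 16 libraries of the series, chosen by their titles: 4 labelled AKR1B10 knockdown with BBR and 4 labelled AKR1B10 knockdown without it, BBR being read as berberine from the series title. Of 55401 genes in the deposited table, the 10846 that reached 1 FPKM (fragments per kilobase of transcript, scaled to depth) in 4 or more of the 16 libraries were tested. The remaining 8 libraries came from negative-control mice, 4 with BBR and 4 without, and serve below only to show where the comparison differs. Every library is poly(A) RNA of mouse liver, and the sample descriptions of all 4 groups carry the prefix AAV. Strain, sex, age, diet, the vector and its promoter, and the dose and length of berberine treatment are not given in the sources used here, nor whether a library is 1 mouse or a pool. Below, libraries with and without berberine are the knockdown-labelled ones unless the negative controls are named.

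Berberine is known for lowering blood cholesterol and for slowing mitochondrial respiration and thereby activating the energy sensor AMPK. AKR1B10, best studied in humans, belongs to the aldo-keto reductases, which turn aldehydes and retinal into alcohols. In liver cells, falling sterol content of the endoplasmic reticulum frees the transcription factor SREBP2, which switches on cholesterol synthesis genes, while SREBP1c, driven by insulin, switches on fatty acid synthesis.

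Akr1b10 mRNA was not lower under the knockdown label. The gene (mm10, chromosome 6, 34384218 to 34396950) held 0.527, 0.389, 0.458 and 0.427 FPKM in the libraries with berberine, against 0.506, 0.351, 0.397 and 0.859 FPKM in those without it. These levels rest on 47 to 181 counts a library, and the groups overlapped, with library 4 without berberine highest. The means, 0.451 ± 0.058 and 0.528 ± 0.230 FPKM (SD, n = 4 each), gave p = 0.743 in a two-sided exact permutation test. Without berberine the knockdown-labelled mean, 0.528 FPKM, was not below the negative-control mean of 0.397 ± 0.151 FPKM (SD, n = 4, exact permutation p = 0.486). Among libraries with berberine, the knockdown-labelled mean of 0.451 FPKM was not below the negative-control mean of 0.359 ± 0.169 FPKM either (SD, n = 4, exact permutation p = 0.371). Knockdown is therefore used below as a label only. Akr1b8, a close relative, averaged 0.854 ± 0.281 FPKM with berberine and 0.953 ± 0.369 FPKM without it (SD, n = 4 each, exact permutation p = 0.771), and Akr1b3 and Akr1b7 stayed under 0.6 FPKM in all 8 libraries. Over the 12 comparisons made in this family the smallest Benjamini-Hochberg adjusted value was 0.343, from exact permutation tests that cannot go below p = 0.0286. It belonged to Akr1b3 in libraries with berberine, lower under the knockdown label without overlap. The means were 0.343 ± 0.111 FPKM under the label and 0.591 ± 0.097 FPKM in negative controls (SD, n = 4 each).

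Total counts were 46273129 to 54394727 in the libraries with berberine and 54764510 to 65012872 in those without. The tissue label held: albumin (Alb) averaged 46485 CPM (counts scaled to library depth with TMM factors) with berberine and 37733 CPM without it, and all 20 hepatocyte identity genes listed passed the filter. Single libraries stood apart. The mitochondrial genome supplied 35.4% of the counts of library 4 without berberine, against 11.2% to 15.9% in the other 7 libraries, and its FPKM values were lower by a median of 0.33 on the log2 scale than its TMM-scaled CPM. Library 3 without berberine had the highest acute phase transcripts, library 3 with berberine the highest immediate early transcripts, and library 4 with berberine sterol transcripts close to the untreated level. Rank correlations over the tested genes were 0.947 to 0.959 among the libraries with berberine and 0.853 to 0.939 among those without. Of 38 gene lists with at least 5 tested members, 18 had a median difference under 0.1 in size. Of these, 17 changed sign when 1 of the 8 libraries was left out. The sign of such a median, where printed below, is therefore not read as a direction. Of the 20 lists with larger medians, 6 changed sign, and each is given below with that library left out. Since these are bulk samples, fewer cells of a type and less RNA per cell cannot be told apart.

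No gene passed the threshold of 0.05 after Benjamini-Hochberg adjustment of edgeR's quasi-likelihood test, the smallest adjusted p being 0.370. At an unadjusted p under 0.05, 1028 of the 10846 genes differed (9.48%), 463 of them higher with berberine (4.27%) and 565 lower (5.21%). In CPM the 4 libraries with berberine lay entirely above the 4 without it for 239 genes (2.20%) and entirely below for 185 (1.71%), together 424 genes (3.91%). In deposited FPKM the groups did not overlap for 551 genes (5.08%), 497 above (4.58%) and 54 below (0.498%), and the FPKM scale of library 4 without berberine, given above, moved with that split. Fitted differences were positive for 46.6% of all genes and negative for 53.4%, with a median of -0.03. With limma on log2(FPKM + 1) the split at p under 0.05 was 1133 higher and 181 lower, the median of all genes standing at 0.11 on that scale, so small list medians below are read against it. DESeq2 called 55 genes at the same adjusted threshold, 30 of them higher. The label alone, compared without berberine, had 1603 genes at an unadjusted p under 0.05 (14.8%), 903 of them higher than in negative controls (8.33%) and 700 lower (6.45%), and none after adjustment. That comparison shares the untreated knockdown-labelled libraries with the one described here, so their level enters both, with opposite sign. Below, p under 0.05 in a count is unadjusted, a printed p is adjusted over all genes tested, and every difference is the log2 fold change of libraries with over libraries without berberine. List counts at that unadjusted p stand beside 4.27% of all genes higher and 5.21% lower.

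The cholesterol synthesis pathway was higher with berberine along its whole length. All 9 tested genes of the mevalonate segment, which leads from acetyl-CoA to squalene, were higher, 8 of them at p under 0.05, with a median difference of 0.87. All 12 genes from squalene to cholesterol were higher too, 8 at p under 0.05, with a median of 0.99, beside a median of -0.03 over all genes. None of the 21 passed after adjustment. Compared without berberine, 19 of the 21 were lower in knockdown-labelled libraries than in negative controls, with a median of -0.41. The list score, the mean log2 CPM of the 21 genes centred over the 8 libraries, was 0.78, 1.16, 0.50 and -0.52 in the libraries with berberine and -0.49, 0.05, -0.40 and -1.08 in those without. Libraries 1 to 3 with berberine lay above all 4 without it, and library 4 with berberine fell among them. Leaving that library out gave a joint median of 1.25, and leaving out libraries 3 and 4 without berberine together gave 0.70.

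**Figure D1:**
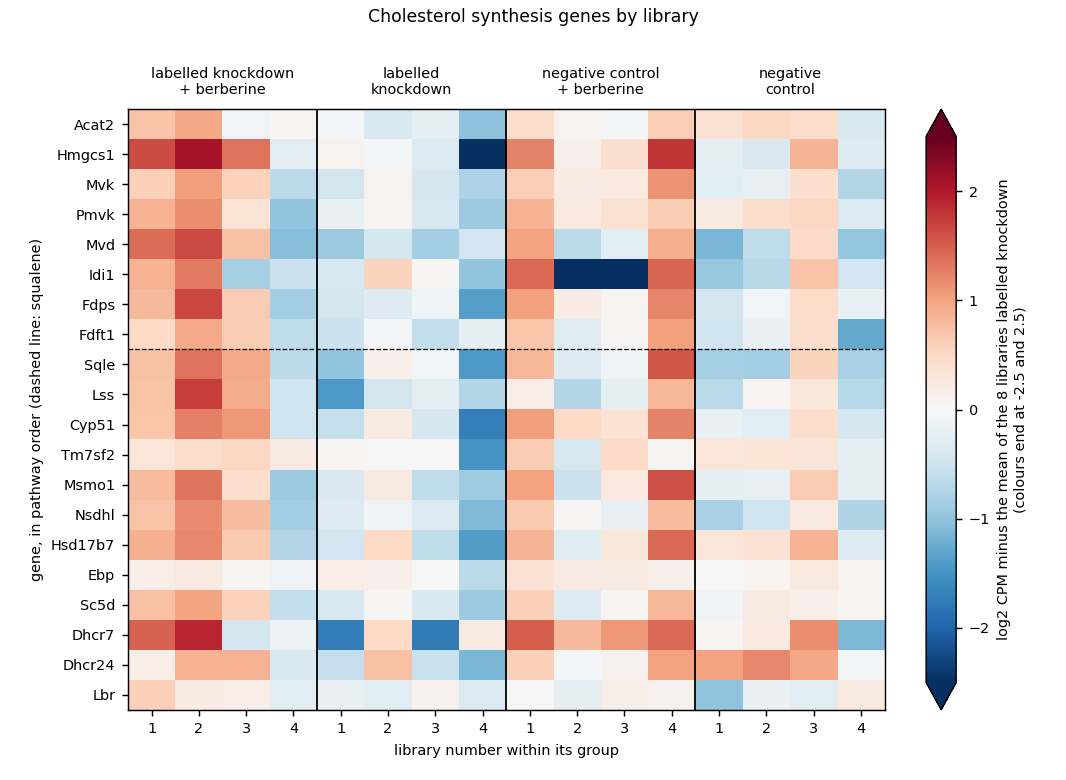
Log2 CPM of 20 cholesterol synthesis genes (rows, in pathway order) in each of the 16 libraries (columns, by group and library number), as the difference from the gene's mean over the 8 knockdown-labelled libraries. Libraries 1 to 3 with berberine are red in most rows and library 4 is not, and the darkest blue in the untreated group is Hmgcs1 in library 4, at 10.4 CPM. Colours end at 2.5 in either direction.

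Within the mevalonate segment, Hmgcs1, the cytosolic HMG-CoA synthase, was at 729, 999, 607 and 194 CPM with berberine and 251, 231, 186 and 10.4 CPM without it. Library 4 without berberine was far below its group, and library 4 with berberine overlapped the rest. The difference was 1.9 (SE 0.71, adjusted p = 0.457), and 1.51 without library 4 of the untreated group. Mvd, which decarboxylates mevalonate diphosphate, stood at 56.5, 67.5, 36.0 and 10.2 CPM with berberine and 11.2, 15.8, 11.9 and 15.4 CPM without, so 3 libraries were above every untreated one and library 4 below them all (1.65, SE 0.52, adjusted p = 0.396). Fdps, the farnesyl diphosphate synthase, differed by 1.305 (SE 0.43, adjusted p = 0.402), or 0.86 without library 2 with berberine, and Idi1, the isomerase before it, by 0.56 (SE 0.90, adjusted p = 0.860), or 0.13 without that library.

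Among the later enzymes, Sqle, the squalene epoxidase, was at 58.2, 89.7, 68.0 and 22.4 CPM with berberine and 17.7, 38.5, 33.4 and 12.9 CPM without, differing by 1.22 (SE 0.51, adjusted p = 0.504). Lss, which closes the sterol ring as lanosterol synthase, was at 38.4, 77.8, 44.2 and 16.5 CPM with berberine against 8.66, 17.0, 19.9 and 14.0 CPM without. Only library 4 with berberine reached down into the untreated range, and the difference was 1.57 (SE 0.43, adjusted p = 0.396). Cyp51, the lanosterol demethylase, was at 149, 222, 196 and 65.2 CPM with berberine and 61.7, 106, 69.2 and 28.4 CPM without (1.25, SE 0.39, adjusted p = 0.396), and shares its locus with Akap9 on the opposite strand. Tm7sf2, a sterol reductase, which overlaps Vps51 on the same strand so that its count is uncertain, was the one gene of the 21 whose groups did not overlap, at 132, 146, 155 and 124 CPM with berberine and 111, 107, 107 and 38.6 CPM without, although its difference of 0.62 came to 0.36 without library 4 of the untreated group. Dhcr7, which makes cholesterol from its last precursor, varied within both groups, from 25.6 to 130.4 CPM with berberine and from 10.4 to 49.3 CPM without.

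The promoters of Hmgcs1, Mvd and Lss, the 3 genes with the largest fitted differences of the 21, are shown because SREBP and NF-Y, the factors that act together on this pathway, have known recognition letters. The 250 bases before the RefSeq gene start (GRCm38.p6) are printed 5′ to 3′ on the gene's strand, chr13:119690101-119690350 plus strand, chr8:122443423-122443672 minus strand and chr10:76531355-76531604 plus strand. Capitals mark CCAAT or its reverse complement ATTGG and, in Hmgcs1, the sterol regulatory element letters TCACNCCAC.
Hmgcs1: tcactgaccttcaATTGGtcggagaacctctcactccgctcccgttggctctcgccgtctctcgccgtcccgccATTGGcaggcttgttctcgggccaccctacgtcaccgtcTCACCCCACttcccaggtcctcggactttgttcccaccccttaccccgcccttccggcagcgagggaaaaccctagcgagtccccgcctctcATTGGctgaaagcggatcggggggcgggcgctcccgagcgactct
Mvd: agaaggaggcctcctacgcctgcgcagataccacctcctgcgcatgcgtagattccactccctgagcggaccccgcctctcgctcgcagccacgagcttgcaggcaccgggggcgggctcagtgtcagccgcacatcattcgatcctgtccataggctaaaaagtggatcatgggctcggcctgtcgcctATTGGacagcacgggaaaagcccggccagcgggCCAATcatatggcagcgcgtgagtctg
Lss: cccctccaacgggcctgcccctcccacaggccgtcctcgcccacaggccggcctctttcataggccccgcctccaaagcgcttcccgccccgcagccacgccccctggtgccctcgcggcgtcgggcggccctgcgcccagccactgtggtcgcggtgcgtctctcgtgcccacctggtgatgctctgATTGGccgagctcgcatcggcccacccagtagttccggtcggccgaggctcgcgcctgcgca
CCAAT, searched on both strands, was found in 15 of the 16 listed sterol genes that have a RefSeq window, of 21 in all, against 37.5% of the 27025 genes with 1 or more of the 32851 windows. The sterol element TCACNCCAC, on both strands, was found in 1 of the 16, Hmgcs1, against 1.22% of all those genes. The motifs were chosen after the values were seen, a match is a description of letters, and a missing match says nothing of the factor.

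Of 6 tested SREBP factors and sterol sensors, 5 were higher, 2 at p under 0.05, with a median of 0.31, or 0.47 without library 4 with berberine. Srebf2, which encodes SREBP2, was at 58.0, 70.9, 71.8 and 50.3 CPM with berberine and 47.8, 47.8, 36.3 and 32.8 CPM without it. Every library with berberine lay above every one without, and the difference was 0.61 (SE 0.20, adjusted p = 0.402), or 0.39 without libraries 3 and 4 of the untreated group. Insig1, which holds SREBP in the endoplasmic reticulum and is itself an SREBP target, was at 318, 367, 332 and 111 CPM with berberine against 161, 196, 180.3 and 82.2 CPM without (0.87, SE 0.37, adjusted p = 0.507). Srebf1, which encodes the lipogenic SREBP1 forms and overlaps Rai1 on the opposite strand, overlapped fully between the groups at 200.3, 166, 166 and 104 CPM with berberine and 126, 144, 139.7 and 178 CPM without (0.12, SE 0.29, adjusted p = 0.915).

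Fatty acid synthesis genes were also mostly higher: 14 of 16 tested, 6 at p under 0.05 and none of them lower, with a median difference of 0.65. Fasn, the fatty acid synthase, was at 513, 319, 242 and 149 CPM with berberine and 126, 149.6, 128 and 142 CPM without it. Library 1 with berberine was highest, library 4 just inside the untreated range, and the difference was 1.17 (SE 0.33, adjusted p = 0.396). Acly, which supplies cytosolic acetyl-CoA from citrate, was at 123, 111, 76.6 and 50.6 CPM with berberine against 33.1, 58.7, 69.7 and 21.6 CPM without (0.98, SE 0.36, adjusted p = 0.457), again meeting the untreated range in library 4. Acss2, which makes acetyl-CoA from acetate and overlaps Gss on the opposite strand, differed by 0.95 (SE 0.35, adjusted p = 0.442), or 0.59 without libraries 3 and 4 of the untreated group.

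The desaturases of polyunsaturated fatty acids followed the same direction. Fads1 was at 467, 397, 465 and 313 CPM with berberine and 272, 300.5, 240.3 and 127 CPM without, and the groups did not overlap (0.80, SE 0.24, adjusted p = 0.396). Fads2, its neighbour and partner enzyme, was at 814, 737, 907 and 525 CPM with berberine against 499, 558, 325 and 308 CPM without, overlapping through library 4 with berberine (0.82, SE 0.27, adjusted p = 0.402). Without libraries 3 and 4 of the untreated group the differences were 0.52 for Fads1 and 0.50 for Fads2. Scd1, the desaturase that makes oleate, did not share the direction, at 1549.6, 1102, 1500.4 and 1092 CPM with berberine and 2669.7, 876, 2356 and 2863 CPM without (-0.74, SE 0.43, adjusted p = 0.604). Acaca, the carboxylase that commits acetyl-CoA to synthesis, differed by 0.36 (SE 0.21, adjusted p = 0.621), or 0.20 without library 2 with berberine, and Me1, which supplies NADPH, by 0.74 (SE 0.39, adjusted p = 0.558), with 0.09 when libraries 3 and 4 without berberine were left out.

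In the negative controls berberine went with a median of -0.36 over the fatty acid synthesis genes, 4 of 16 being higher. The list score, centred as for the sterol genes, was 0.14, -0.82, -0.06 and -0.27 in negative controls with berberine. Those without it scored -0.08, 0.55, -0.05 and 0.34, so the groups overlapped, with library 2 the extreme of both. Of the 16, 14 were lower in untreated knockdown-labelled libraries than in untreated negative controls, with a median of -0.48. For Fasn, negative controls with berberine were at 147, 74.8, 129.5 and 170.1 CPM and negative controls without it at 119, 252, 179.8 and 177 CPM, a difference of -0.48 (SE 0.33). The contrast of the 2 berberine differences was 1.65 (SE 0.46, adjusted p = 0.756, edgeR quasi-likelihood test). Over all genes that contrast called none after adjustment (smallest 0.756) and 711 at an unadjusted p under 0.05 (6.56%), 294 of them positive (2.71%) and 417 negative (3.84%). Among them were 8 of the 16 fatty acid synthesis genes and 2 of the 21 sterol genes, and the sterol medians in the negative controls were 0.70 for the mevalonate segment and 0.33 after squalene. In the negative controls, 399 genes had an unadjusted p under 0.05 for berberine (3.68%), 189 higher (1.74%) and 210 lower (1.94%), and none passed after adjustment.

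Lipid droplet and uptake genes were mixed, 11 of 20 higher, 4 at p under 0.05 higher and 1 lower. Cd36, a fatty acid and lipoprotein receptor, was at 69.2, 68.3, 79.2 and 87.1 CPM with berberine and 35.1, 77.3, 13.7 and 13.2 CPM without it. The 4 libraries with berberine were close together, whereas those without ranged widely and library 2 lay inside the berberine range. The difference of 1.12 (SE 0.45, adjusted p = 0.472) came to 0.44 without libraries 3 and 4 of the untreated group and was 1.89 without library 2. Negative controls with berberine held 63.2, 62.0, 30.5 and 65.9 CPM and those without it 121, 106, 72.7 and 104 CPM, the opposite direction, and the contrast was 1.99 (SE 0.63, adjusted p = 0.756). Plin2, the main coat protein of hepatocyte droplets, was at 381, 501, 358 and 226 CPM with berberine and 219.6, 341, 181 and 161 CPM without (0.70, SE 0.29, adjusted p = 0.490). Plin5, the coat protein of droplets at mitochondria, did not overlap between the groups, at 63.3, 71.8, 74.0 and 74.6 CPM with berberine and 58.8, 62.4, 40.7 and 30.0 CPM without (0.56, SE 0.24, adjusted p = 0.507), but came to 0.23 without libraries 3 and 4 of the untreated group. Lpl, lipoprotein lipase, was lower, at 39.0, 30.2, 30.3 and 18.1 CPM with berberine and 47.5, 29.5, 40.9 and 57.2 CPM without (-0.57, SE 0.26, adjusted p = 0.512), and higher in negative controls with berberine, at 68.8, 77.2, 54.5 and 44.4 CPM, than in those without, at 43.4, 27.9, 31.9 and 26.6 CPM (contrast -1.49, SE 0.36, adjusted p = 0.756).

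Of 31 tested genes of fatty acid oxidation and ketogenesis, 25 were higher and 1 had p under 0.05, with a median of 0.10 that became -0.03 without untreated library 3 and -0.08 without libraries 3 and 4 of the untreated group. That gene was Bdh1, which interconverts the ketone bodies, at 273, 211, 247 and 273 CPM with berberine against 177, 222, 156 and 109.6 CPM without (0.60, SE 0.23, adjusted p = 0.460), with untreated library 2 inside the berberine range. Cpt1a, the gate of mitochondrial fatty acid entry, was at 258, 283, 342 and 301 CPM with berberine and 299.7, 307, 232 and 253 CPM without (0.12, SE 0.14, adjusted p = 0.800). Triglyceride synthesis genes split 4 higher and 5 lower, 1 of these at p under 0.05, median -0.003.

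**Figure D2:**
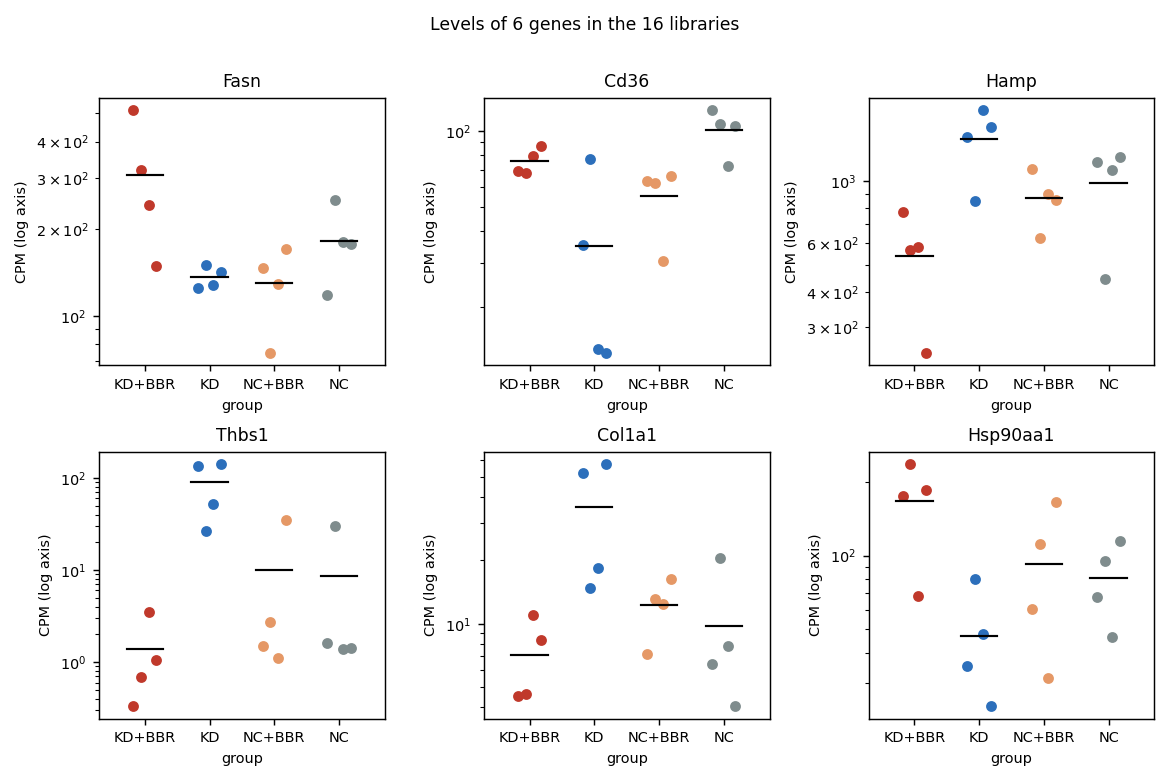
CPM of 6 genes on a log axis in the knockdown-labelled libraries with (KD+BBR) and without berberine (KD) and in the negative controls with (NC+BBR) and without it (NC), each point a library and each bar the mean of 4. Thbs1 with berberine lies between 0.331 and 3.53 CPM, below every library without it, and Fasn library 4 with berberine, at 149 CPM, meets the untreated range.

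By rule, the 12 genes in each direction with the smallest p among those that separated the groups in FPKM are described next. Their separation in FPKM follows from that choice and is not a further result. Before the limits on level and name, 497 genes separated upward and 54 downward in FPKM, so the lower 12 came from a smaller pool. Lsm14b, an RNA-binding protein of translationally silent particles, was at 26.6, 27.9, 26.3 and 28.8 CPM with berberine and 7.39, 13.5, 6.43 and 8.49 CPM without it. The 4 libraries with berberine lay close together and above every untreated one (1.61, SE 0.31, adjusted p = 0.370, edgeR quasi-likelihood test). Leng8 was at 26.3, 44.3, 42.4 and 25.8 CPM with berberine and 12.6, 17.1, 7.42 and 4.08 CPM without (1.75, SE 0.37, adjusted p = 0.370). Hnrnpd, which binds AU-rich elements of short-lived mRNAs, was at 42.7, 46.1, 58.6 and 47.3 CPM with berberine and 33.1, 33.7, 31.0 and 25.9 CPM without (0.66, SE 0.16, adjusted p = 0.393). Hnrnpa1, another member of the hnRNP family, Pnn, a splicing-associated protein, and Atxn2l, an RNA-binding protein of stress granules, differed by 0.49 (SE 0.13), 0.65 (SE 0.17) and 0.62 (SE 0.15), none of the 3 overlapping between groups. The splicing and nuclear speckle list was even, 17 of 33 higher with a median of 0.02. Leng8 was its 1 gene at p under 0.05, and the list does not hold the other genes of this paragraph.

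On the same side, Tapbp, tapasin of the MHC class I loading complex, was at 65.9, 50.1, 67.4 and 60.5 CPM with berberine and 3.96, 25.6, 16.7 and 3.15 CPM without, a difference of 2.30 (SE 0.60, adjusted p = 0.396). Untreated libraries 1 and 4 were lowest, and because Tapbp overlaps Zbtb22 on the same strand its count is uncertain. Wdr46, a ribosome assembly factor, differed by 0.63 (SE 0.14, adjusted p = 0.393), Nectin1, a cell adhesion receptor, by 0.73 (SE 0.17, adjusted p = 0.393), and Oat, the pericentral ornithine aminotransferase, by 0.67 (SE 0.18, adjusted p = 0.396), all without overlap. Tubb2a, a tubulin whose reads may be shared with close paralogs, was at 122, 135, 96.7 and 36.4 CPM with berberine and 28.4, 33.1, 29.1 and 44.1 CPM without, and Akr1e1, an aldo-keto reductase, at 38.3, 39.1, 23.3 and 43.5 CPM with berberine and 19.7, 24.2, 19.6 and 19.6 CPM without. Both separated in FPKM but overlapped in CPM, through library 4 for Tubb2a and library 3 for Akr1e1.

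**Figure D3:**
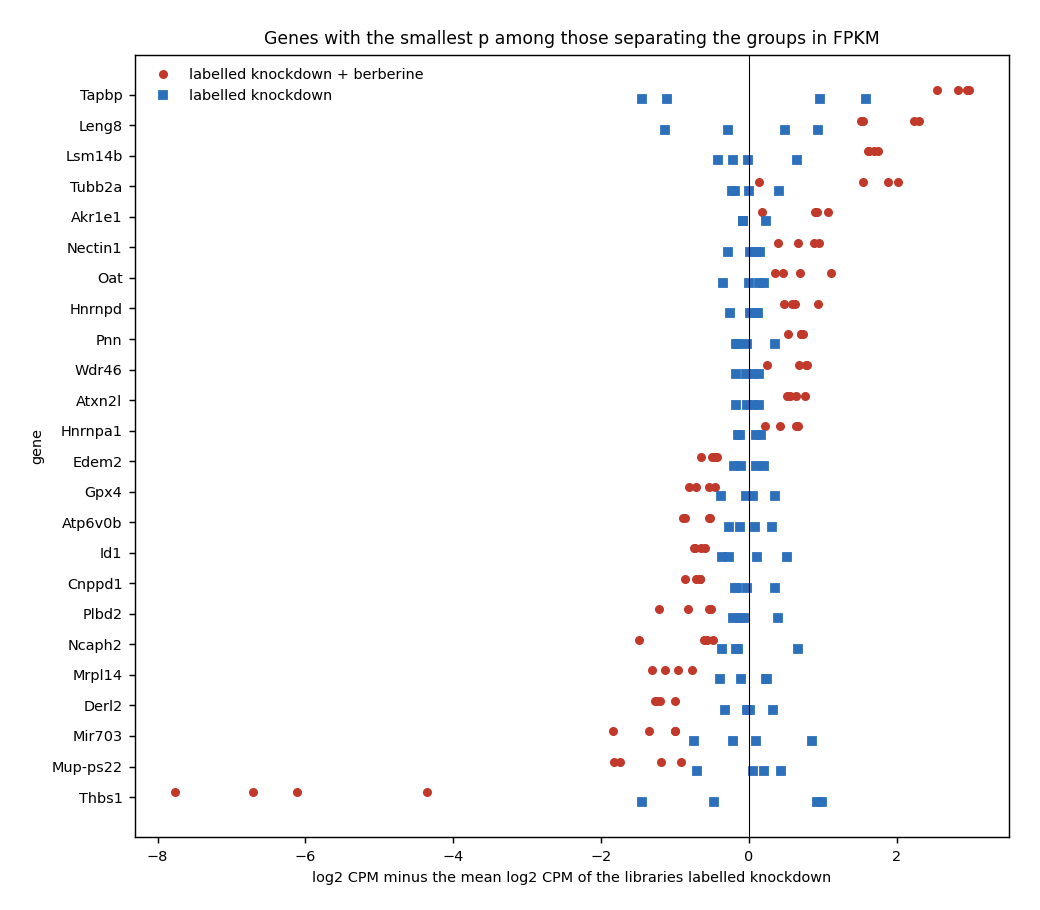
Log2 CPM of the 12 genes per direction with the smallest p among those separating in FPKM, each point 1 of the 4 libraries with (red circles) or without berberine (blue squares), relative to the untreated mean of the gene. Thbs1 has the largest fitted log2 fold change on the lower side (-5.99) and Tapbp on the higher side (2.30).

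On the lower side, 2 genes act in clearing misfolded proteins out of the endoplasmic reticulum. Derl2, a channel component of that pathway, was at 44.6, 51.1, 43.3 and 42.5 CPM with berberine and 104, 101, 128 and 82.2 CPM without it. The groups lay far apart, and the difference was -1.19 (SE 0.24, adjusted p = 0.370). Edem2, a mannosidase that marks misfolded glycoproteins, was at 55.8, 49.2, 54.5 and 56.9 CPM with berberine and 66.9, 71.3, 89.0 and 82.6 CPM without (-0.52, SE 0.12, adjusted p = 0.393). The list of folding, disposal and stress genes they come from had 24 of 34 genes higher. Its median was 0.09, or -0.06 without untreated library 4, so the list gave no steady direction. At p under 0.05, 2 were lower and 1 higher, and these are the 2 lower ones.

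Other genes on that side were Mrpl14, a protein of the mitochondrial ribosome, at 40.8, 36.3, 32.1 and 46.4 CPM with berberine and 73.8, 93.7, 60.6 and 94.5 CPM without (-1.05, SE 0.22, adjusted p = 0.370), and Gpx4, which detoxifies lipid peroxides, at 315, 262, 279.5 and 333 CPM with berberine and 444, 354, 583 and 478 CPM without (-0.64, SE 0.19, adjusted p = 0.396). Gpx4 came to -0.42 without libraries 3 and 4 of the untreated group. The lysosomal genes Atp6v0b, a subunit of the proton pump, and Plbd2, a hydrolase-like protein that overlaps Sds on the opposite strand, did not overlap between the groups and differed by -0.71 (SE 0.17) and -0.76 (SE 0.20). Cnppd1 differed by -0.74 (SE 0.25, adjusted p = 0.402) and Ncaph2, a condensin subunit overlapping Tymp and Sco2 on the opposite strand, by -0.80 (SE 0.36, adjusted p = 0.515). Ncaph2 was at 63.2, 61.7, 67.1 and 33.4 CPM with berberine and 85.3, 73.4, 83.4 and 149 CPM without, library 4 being the extreme of both groups, and differed by -0.52 without untreated library 4. The row named Mir703 (-1.37, SE 0.30, adjusted p = 0.393) is counted in poly(A) RNA, came to -0.80 without libraries 3 and 4 of the untreated group, and is not a measure of a mature microRNA, and Mup-ps22 (-1.43, SE 0.44, adjusted p = 0.396) is a pseudogene that may share reads with urinary protein genes.

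Hepcidin was lower. Hamp (ENSMUSG00000050440; mm10, chromosome 7, 30942368 to 30944032, minus strand), which encodes the liver hormone that lowers iron export from cells, was at 773, 568, 579 and 242 CPM with berberine and 1444, 853, 1804 and 1566 CPM without it. Every library with berberine lay below every one without, library 4 with berberine being lowest, and the difference was -1.39 (SE 0.36, adjusted p = 0.396). Leaving out libraries 3 and 4 of the untreated group gave -1.08. Per length, Hamp averaged 1239 FPKM with berberine and 2893 FPKM without, and its nearby copy Hamp2 28.5 FPKM with berberine and 51.1 FPKM without. Hamp2 was at 28.5, 10.3, 13.3 and 19.2 CPM with berberine and 46.5, 19.4, 39.0 and 37.4 CPM without (-0.996, SE 0.36, adjusted p = 0.441). Reads of the pair are nearly alike and may be split between them. In negative controls Hamp was at 1104, 626, 898 and 854 CPM with berberine and 1173, 446, 1103 and 1223 CPM without, a difference of -0.18, and the contrast with them was -1.21 (SE 0.51, adjusted p = 0.756).

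The promoters of the pair are shown because BMP signalling through SMAD proteins and interleukin-6 signalling through STAT3 are the known inputs of hepcidin. The windows are the 250 bases before each RefSeq start in GRCm38.p6, chr7:30944030-30944279 and chr7:30924182-30924431, both minus strand. Capitals mark GGCGCC, the core letters of BMP-responsive elements, and TTCNNNGAA, the letters of a STAT site.
Hamp: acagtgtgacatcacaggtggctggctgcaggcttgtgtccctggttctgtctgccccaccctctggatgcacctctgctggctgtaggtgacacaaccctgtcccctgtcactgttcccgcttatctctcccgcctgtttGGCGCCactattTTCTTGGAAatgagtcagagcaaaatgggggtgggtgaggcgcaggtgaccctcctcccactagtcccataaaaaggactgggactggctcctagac
Hamp2: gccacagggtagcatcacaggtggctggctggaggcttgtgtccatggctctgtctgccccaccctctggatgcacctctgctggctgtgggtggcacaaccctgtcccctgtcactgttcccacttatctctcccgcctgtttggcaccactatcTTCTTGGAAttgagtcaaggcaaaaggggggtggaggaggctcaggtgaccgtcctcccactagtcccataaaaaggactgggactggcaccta
GGCGCC, which reads alike on both strands, was found in Hamp and not in Hamp2, and in 10.8% of all genes with a window. TTCNNNGAA, also alike on both strands, was found in both genes and in 8.13% of all genes with a window. These motifs too were chosen after the values were seen.

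Of the other 18 tested iron genes, 3 more were lower at p under 0.05, Id1, Smad7 and the haem carrier Hpx. Id1, a BMP target, was at 12.8, 12.1, 13.2 and 11.96 CPM with berberine and 16.6, 21.5, 15.5 and 28.6 CPM without, with no overlap (-0.72, SE 0.28, adjusted p = 0.467). Smad7, a feedback inhibitor of BMP and TGF-beta signalling, was at 8.72, 8.21, 8.51 and 8.05 CPM with berberine and 10.4, 12.3, 10.2 and 9.87 CPM without, again with no overlap (-0.35, SE 0.14, adjusted p = 0.472). Ncoa4, which carries ferritin to lysosomes, was the only iron gene higher at p under 0.05, at 8.84, 44.2, 38.1 and 22.9 CPM with berberine and 5.07, 17.4, 5.28 and 3.82 CPM without (1.85, SE 0.63, adjusted p = 0.402). Untreated library 2 and library 1 with berberine overlapped, and negative controls without berberine held 83.0, 71.3, 82.2 and 29.8 CPM, 3 of them above every knockdown-labelled library. The iron list had 7 of 20 genes higher and a median of -0.18, or -0.09 without library 3 with berberine and -0.003 on log2(FPKM + 1).

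The largest fitted difference of any gene named here was that of Thbs1. This gene, thrombospondin 1, a matrix protein that activates latent TGF-beta, was at 0.331, 0.688, 3.53 and 1.04 CPM with berberine and 136, 26.4, 52.1 and 143 CPM without it. The groups were far apart, and the fitted difference was -5.99 (SE 1.498, adjusted p = 0.396), with a range of -7.03 to -5.66 when any single library was left out. Negative controls were at 1.51, 2.72, 1.10 and 35.0 CPM with berberine and 1.60, 30.4, 1.39 and 1.41 CPM without, with a single high library in each group. The contrast with them was -6.21 (SE 1.85, adjusted p = 0.756).

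Both collagen I chains and smooth muscle actin, the classic products of activated stellate cells, were lower alongside. Col1a1 was at 4.52, 4.65, 11.0 and 8.34 CPM with berberine and 52.0, 14.8, 18.4 and 57.7 CPM without it, with no overlap (-2.32, SE 0.55, adjusted p = 0.393). Col1a2 was at 5.50, 5.72, 13.8 and 6.72 CPM with berberine and 25.7, 11.0, 12.4 and 29.1 CPM without (-1.30, SE 0.36, adjusted p = 0.396), overlapping through library 3 with berberine. Acta2 was at 1.22, 1.52, 1.11 and 2.00 CPM with berberine and 10.2, 3.28, 2.49 and 9.75 CPM without (-2.14, SE 0.61, adjusted p = 0.396), with no overlap. For Thbs1 and these 3 genes, untreated libraries 1 and 4 were the highest. Leaving out libraries 3 and 4 of that group, which keeps library 1, gave -2.22 for Col1a1, -1.20 for Col1a2 and -2.21 for Acta2. In the same order, the differences were -2.07, -1.12 and -1.81 without untreated library 1, and -1.99, -1.04 and -1.87 without untreated library 4. Leaving out libraries 1 and 4 together was not tested.

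The stellate list as a whole was mixed. Lrat, the retinol-storing enzyme of quiescent stellate cells, was higher without overlap, at 6.94, 6.59, 11.9 and 5.99 CPM with berberine and 4.32, 3.12, 3.60 and 4.79 CPM without (0.99, SE 0.31, adjusted p = 0.396). Dcn, a matrix proteoglycan, was at 56.3, 58.6, 99.6 and 59.2 CPM with berberine and 57.0, 37.7, 57.0 and 41.2 CPM without (0.50, SE 0.23, adjusted p = 0.520), or 0.27 without library 3 with berberine. Over the list, 5 of 15 tested genes were higher, 2 at p under 0.05 higher and 3 lower, and the median was -0.16, or 0.04 without untreated library 4 and 0.02 on log2(FPKM + 1). The summed level of all 20 listed stellate genes was 198 to 346 CPM with berberine and 183 to 380 CPM without, and no listed gene was at 0 in all libraries. The part of stellate cell number in these differences was not tested.

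Acute phase genes, the liver's secreted response to inflammation, were lower, with 1 untreated library far above the rest. Of 28 tested, 2 were higher and 26 lower, 7 at p under 0.05, with a median of -0.75 that was -0.16 without untreated library 3. Orm2, an orosomucoid, was at 6.68, 5.84, 37.2 and 18.1 CPM with berberine and 28.5, 12.7, 1023 and 22.0 CPM without, so library 3 stood alone. Its difference of -4.0 became -0.31 without that library. Saa1, serum amyloid A, was at 24.1, 27.7, 172 and 59.9 CPM with berberine and 109, 62.1, 2364 and 17.6 CPM without, and its difference of -3.17 turned to 0.17. Lcn2, an iron-withholding lipocalin, went likewise, -4.03 with the library and -0.42 without it, and so did Orm3 (-3.22 and -1.19) and Cp, ceruloplasmin (-0.56 and -0.24). In the negative controls the median was 0.84, and 18 of the 28 genes had p under 0.05 in the contrast of the berberine differences. The list score, centred as for the sterol genes, was -0.41, 2.15, -0.15 and -0.30 in negative controls with berberine, so library 2 stood alone. Those without it scored -0.75, -0.76, -0.33 and -0.59. Untreated library 3 under the knockdown label, at 2.21, also enters the contrast. The 0.84 and the 18 include these libraries and are not read as a response of the whole list. Reads of the Orm and Saa families may be split among near-identical copies.

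Neutrophil and chemokine transcripts tracked the same library. Of 16 listed genes, 5 were tested, with a median of -2.17 that was -0.07 without untreated library 3, and the summed level of the 16 was 15.6 to 36.6 CPM with berberine and 26.8 to 389 CPM without. S100a8, a neutrophil calcium-binding protein, was at 1.08, 0, 1.85 and 0 CPM with berberine and 0.643, 0, 85.7 and 1.67 CPM without, and S100a9, its partner, at 1.65, 0.728, 2.26 and 0.470 CPM with berberine and 1.36, 0.292, 89.2 and 0.668 CPM without. Cxcl1, a neutrophil-attracting chemokine, kept more of its difference, -2.17 (SE 0.68, adjusted p = 0.396) in all libraries and -1.08 without library 3.

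Kupffer cell and macrophage genes were lower in all 16 tested members, 2 at p under 0.05, with a median of -0.54 and of -0.28 without untreated library 3. Clec4f, a lectin specific to mouse Kupffer cells, was at 47.9, 27.97, 77.7 and 45.3 CPM with berberine and 70.4, 54.3, 148 and 103 CPM without (-0.92, SE 0.40, adjusted p = 0.507), overlapping through library 3 with berberine. Cd163, the haemoglobin scavenger receptor, was at 7.39, 4.31, 9.27 and 8.77 CPM with berberine and 13.4, 8.29, 29.5 and 6.94 CPM without (-0.97, SE 0.45, adjusted p = 0.526), or -0.36 without library 3, and Clec4f -0.61. Summed over the 17 listed genes the level was 206 to 559 CPM with berberine and 389 to 869 CPM without, none at 0 in all libraries. The median in the negative controls was 0.49. All 16 were higher in untreated knockdown-labelled libraries than in untreated negative controls, with a median of 1.10. The part of macrophage number in these differences was not tested.

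Interferon-response genes pointed both ways, 9 of 20 higher, 3 higher and 2 lower at p under 0.05. Stat2, a signal carrier of type I interferon, was higher without overlap, at 73.3, 92.2, 65.0 and 43.3 CPM with berberine and 40.2, 21.9, 41.1 and 42.5 CPM without (0.91, SE 0.27, adjusted p = 0.396), while Irf7, the factor that amplifies the response, was lower at 21.1, 18.7, 28 and 33.6 CPM with berberine and 37.9, 24.0, 42.3 and 59.0 CPM without (-0.69, SE 0.26, adjusted p = 0.457), or -0.46 without untreated library 4, and overlaps Phrf1 on the opposite strand. Oas1g, an antiviral synthetase, was at 1.81, 1.84, 2.39 and 1.86 CPM with berberine and 3.55, 2.19, 4.77 and 4.46 CPM without (-0.92, SE 0.30, adjusted p = 0.402), or -0.54 without libraries 3 and 4 of the untreated group. It was higher with berberine in the negative controls (1.09, SE 0.31), the contrast being -2.02 (SE 0.43, adjusted p = 0.756). Gbp2, a guanylate-binding protein, ranged from 1.82 to 14.0 CPM with berberine and from 1.76 to 3.05 CPM without (1.31, SE 0.58, adjusted p = 0.507), or 0.66 without library 3 with berberine.

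**Figure D4:**
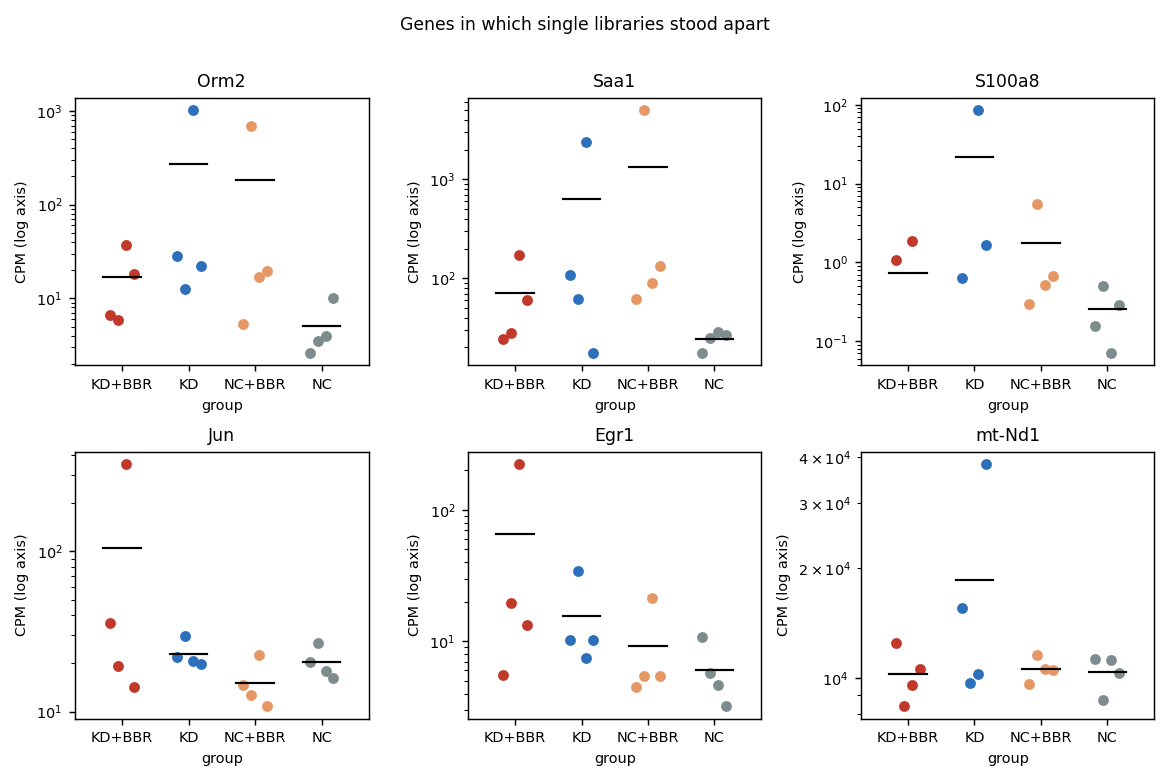
CPM of 6 genes on a log axis in the knockdown-labelled libraries with (KD+BBR) and without berberine (KD) and in the negative controls with (NC+BBR) and without it (NC), points being libraries and bars means. Within its group, untreated library 3 is the high point of Orm2 (1023 CPM), Saa1 and S100a8, untreated library 4 that of mt-Nd1, and library 3 with berberine that of Jun (353 CPM) and Egr1. S100a8 was at 0 CPM in 2 libraries with berberine and 1 without, which cannot be drawn on the log axis.

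Chaperone genes were higher as a group, though few reached a small p. All 16 tested heat shock proteins and cochaperones were higher, 2 at p under 0.05, with a median of 0.40, or 0.22 without untreated library 4. Hsp90aa1, the inducible HSP90, was at 175, 238, 68.2 and 186 CPM with berberine and 35.3, 80.3, 47.7 and 24.1 CPM without, overlapping only through library 3 with berberine (1.83, SE 0.51, adjusted p = 0.396). Hsf1, the heat shock transcription factor, was at 22.0, 17.5, 15.9 and 19.1 CPM with berberine and 10.7, 10.5, 12.3 and 20.5 CPM without (0.47, SE 0.19, adjusted p = 0.480), or 0.74 without untreated library 4. Hspa1a, the stress-inducible HSP70, which shares reads with its copy Hspa1b, was at 7.31, 14.2, 11.3 and 3.15 CPM with berberine and 4.71, 4.06, 2.97 and 1.36 CPM without (1.46, SE 0.90, adjusted p = 0.627). In the negative controls it ran the other way, at 0.332, 0.607, 2.44 and 0.227 CPM with berberine and 31.1, 20.02, 3.36 and 0.885 CPM without, and the contrast was 5.38 (SE 1.34, adjusted p = 0.756). The chaperone list there had a median of -0.45 with 2 of 16 higher, and 9 of the 16 had p under 0.05 in the contrast. Its list score, centred as for the sterol genes, was -0.76, -0.66, -0.30 and -0.61 in negative controls with berberine. Those without it scored 0.41, 0.68, -0.31 and -0.39, so libraries 1 and 2 were high and the groups overlapped.

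Immediate early genes, which respond within minutes to stress or growth factors, were higher in 11 of 16 tested with a median of 0.44, and library 3 with berberine stood apart from the other 3. Jun was at 35.8, 19.3, 353 and 14.3 CPM with berberine and 21.8, 29.5, 20.7 and 19.8 CPM without, Btg2 at 6.47, 10.2, 135 and 6.21 CPM with berberine and 7.14, 11.51, 11.47 and 7.13 CPM without, and Egr1 at 5.57, 19.5, 224 and 13.3 CPM with berberine and 10.2, 34.5, 7.47 and 10.2 CPM without. Without library 3 the list median was -0.35, and the differences were 0.01 for Jun, -0.29 for Btg2 and -0.29 for Egr1, against 2.20, 2.08 and 2.07 with it.

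None of 14 genes of gluconeogenesis and insulin response and none of 7 AMPK subunits and upstream kinases had p under 0.05, with medians of 0.01 and -0.04. The 14 fitted differences ran from -1.20 to 0.62. Beside 3.91% of all genes, the groups did not overlap in CPM for 3 of the 14, 2 higher and 1 lower. Among these, named after their values were seen, were Ppp1r3b, a subunit that directs a phosphatase to glycogen, at 0.61 (SE 0.38, adjusted p = 0.630), and Akt2, a kinase of insulin signalling, at -0.19 (SE 0.10, adjusted p = 0.573). Pck1, the key enzyme of gluconeogenesis, was at 2005, 2513, 4533 and 3282 CPM with berberine and 3208, 3349, 2826 and 2329.8 CPM without (0.07, SE 0.28, adjusted p = 0.941). G6pc, which releases free glucose, was at 364, 232, 226 and 109 CPM with berberine and 124, 217, 144 and 478 CPM without (-0.05, SE 0.41, adjusted p = 0.977), and both overlapped widely. Glycolysis and glycogen genes had 10 of 16 higher and none at p under 0.05.

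In bile and sterol disposal, 2 of 20 genes had p under 0.05, both lower. Abcg8 was at 38.4, 43.9, 50.3 and 55.5 CPM with berberine and 87.4, 65.7, 46.6 and 89.3 CPM without (-0.62, SE 0.22, adjusted p = 0.419), and Abcg5 at 105, 92.6, 94.6 and 138 CPM with berberine and 147, 120.3, 131 and 222 CPM without (-0.53, SE 0.21, adjusted p = 0.472), or -0.30 without untreated library 4. Both overlapped between the groups. The pair forms the transporter that moves cholesterol into bile, and the genes overlap head to head on opposite strands. Cyp7a1, the rate-limiting enzyme of bile acid synthesis, was at 18.6, 53.5, 53.7 and 15.3 CPM with berberine and 39.8, 34.6, 23.1 and 27.9 CPM without (0.17, SE 0.46, adjusted p = 0.920). Cyp8b1, which sets the share of cholic acid, was at 403, 715, 667 and 519 CPM with berberine and 452, 527, 200.3 and 311 CPM without (0.63, SE 0.30, adjusted p = 0.526).

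Among drug-metabolising genes, Cyp1a2, an aryl hydrocarbon receptor target, was at 535, 482, 497 and 536 CPM with berberine and 313, 500.5, 264 and 279 CPM without (0.60, SE 0.19, adjusted p = 0.396), or 0.34 without libraries 3 and 4 of the untreated group. It was the only one of 21 cytochromes P450 at p under 0.05. Gsta2, a glutathione transferase of the NRF2 response with close paralogs, was higher without overlap at 21.9, 16.04, 21.6 and 26.5 CPM with berberine and 12.5, 14.9, 6.23 and 12.97 CPM without (0.88, SE 0.25, adjusted p = 0.396), and 4 of 16 NRF2 targets were higher at p under 0.05. Rdh11, a retinal reductase, was at 43.8, 64.0, 44.3 and 17.7 CPM with berberine and 20.03, 19.8, 16.6 and 5.22 CPM without (1.46, SE 0.43, adjusted p = 0.396), the smallest p of 19 vitamin A and aldo-keto reductase genes, 13 of which were higher. Igf1, the growth hormone-driven growth factor, was lower at 482, 346, 462 and 459 CPM with berberine and 613, 463, 795 and 731 CPM without, overlapping through library 1 with berberine (-0.57, SE 0.18, adjusted p = 0.396), or -0.30 without libraries 3 and 4 of the untreated group.

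Cytosolic ribosomal protein genes were lower in 58 of 79, 6 of them and none higher at p under 0.05, with a median of -0.18, or -0.04 without untreated library 3. The share of 6 in 79 stands beside 5.21% of all genes lower at that p. Rpl27 was at 201, 161, 176 and 202 CPM with berberine and 288, 205, 280.0 and 268 CPM without, with no overlap (-0.49, SE 0.14, adjusted p = 0.396). On log2(FPKM + 1) the list median was -0.002. Nuclear respiratory chain subunits were lower in 41 of 66, 9 at p under 0.05, beside the same 5.21% of all genes. Their median of -0.08 was 0.03 without untreated library 1 and 0.09 on log2(FPKM + 1). Cox6c, of complex IV, was at 251, 204, 189 and 272 CPM with berberine and 416, 283, 321 and 409 CPM without (-0.64, SE 0.18, adjusted p = 0.396). Mitochondrial ribosomal proteins were even, 43 of 78 higher, 4 higher and 3 lower at p under 0.05. All 13 mitochondrially encoded genes were lower, median -0.60, but the median was 0.02 without untreated library 4 and 0.03 under quantile normalization. The gene mt-Nd1 of complex I was at 12476, 8385, 9568 and 10573 CPM with berberine and 15519, 9740.5, 10262 and 38460.0 CPM without. Across all tested genes the median difference ran from -0.09 in the shortest of 4 equal classes of transcript length to 0.01 in the longest, so transcript length moved with these results, and its part in them was not tested.

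Hepatocyte identity genes split 10 higher and 10 lower, none at p under 0.05, with a median of 0.01. Pericentral hepatocyte genes were higher in 13 of 15, 2 at p under 0.05 (median 0.23, or 0.13 without library 3 with berberine), and periportal and urea cycle genes in 8 of 18, with 1 lower at p under 0.05 (median -0.05). None of the tested genes of sinusoidal endothelium (13), T and NK cells (5), B and plasma cells (10), cholangiocytes (3) and recruited macrophages (5) had p under 0.05, their medians being -0.02, 0.18, 0.20, -0.34 and 0.03 in that order. Without library 3 with berberine the median was -0.40 for T and NK cells and -0.20 for B and plasma cells. Haemoglobin and other red cell genes were higher in 6 of 6, median 0.16, or 1.53 without untreated library 4, none at p under 0.05. Of 19 circadian clock genes 10 were higher and none had p under 0.05, and of 17 growth hormone axis and urinary protein genes 5 were higher, 1 higher and 1 lower at p under 0.05. Of 17 listed cell cycle genes, 3 passed the filter.

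**Figure D5:**
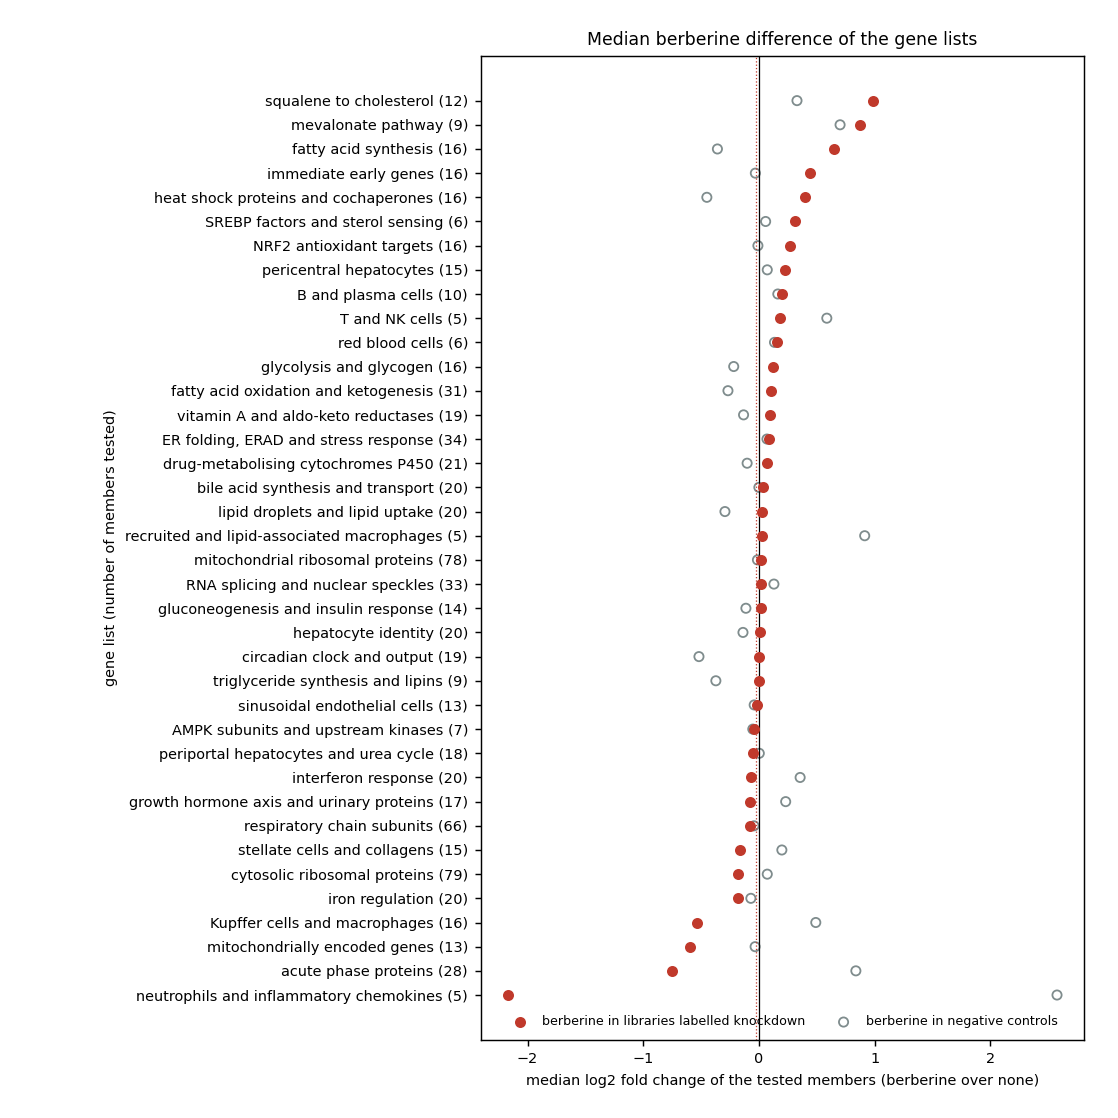
Median log2 fold change of 38 gene lists with at least 5 tested members for berberine in the knockdown-labelled libraries (filled red) and in the negative controls (open grey), with the number of members tested in brackets and a dotted line at the median of all genes. Sterol and fatty acid synthesis lie at the upper end, acute phase and neutrophil genes at the lower end, where the negative controls lie on the other side of 0. For acute phase genes, library 2 with berberine stood alone among those negative controls.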

How the data were processed

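Liver poly(A) RNA of 16 mouse libraries in 4 groups of 4 was sequenced in paired reads of 150 bases, per the labels' protocols, and groups were taken from the sample titles. The authors deposited 1 table of gene counts and 1 set of FPKM columns, aligned to mm10. The submitters' processing notes name StringTie 1.3.4d, HISAT2 2.0.4 and cutadapt 1.9, besides DESeq2 and edgeR, with no role for each, and the counting program and use of strand are not given in the sources used here. The deposited counts were whole numbers without normalization, but 760 to 1283 genes a library held a count of 4 and only 144 to 208 a count of 5, so a count is not always 1 fragment. The deposited FPKM values, per the authors' table, are scaled by transcript length and library, and were used for the filter (at least 1 FPKM in at least 4 libraries), for levels between genes and for an alternative test.

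Differences were tested on the counts with edgeR 4.0.16 in R 4.3.3 (TMM scaling, quasi-likelihood test, 1 fit over the 16 libraries, Benjamini-Hochberg adjustment over 10846 genes, threshold 0.05). The contrast set against the negative controls is the difference of the berberine differences. The SE beside an edgeR difference or contrast was derived from the test, as its size divided by the square root of the F statistic. Single levels were compared with exact permutation tests in scipy 1.17.1. DESeq2 1.42.0, limma 3.58.1, other filters and scalings, library weights, a replicate block and leaving out libraries served as alternatives. Tested on simulated counts for this comparison over 10846 genes, the fit recovered 37% of 100 genes changed by 1 on the log2 scale and 85% of 100 changed by 2, with 6 unchanged genes called. The simulated counts were drawn independently, with no library standing apart over many genes, so these shares need not hold for the real libraries. No columns were identical.

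Named genes are the AKR1B family, the 12 genes per direction with the smallest p among those whose groups did not overlap in FPKM and that averaged at least 5 FPKM in the higher group, up to 4 members of each list by p, and a fixed set of sterol, lipid, iron and glucose genes, of which those reported are Hmgcs1, Mvd, Sqle, Lss, Cyp51, Fasn, Scd1, Srebf1, Srebf2, Insig1, Hamp, Cyp7a1, Pck1, G6pc and Cpt1a. Some genes these rules name are not reported here. Genes and lists were chosen with earlier results of these data known. Separate mice are not stated for the libraries, so p-values measure the spread between these samples, which may be technical. Promoter windows came from RefSeq (GRCm38.p6). Overlapping genes were looked up for the 97 named genes and are given, with near-identical copies, beside them.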

Additional observations from a re-analysis of the deposited data

Results flagged for a closer look

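In 25 of 196 groups of 4 examined (97 named genes and the mitochondrial share, in the libraries with and without berberine), 1 library lay apart from the other 3 by a gap above Dixon's critical share of the group's range. About 9.8 would be flagged by chance at 1 in 20, and the genes are not independent of each other. No explanation was tested for any of them.

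Library 3 with berberine was the far library for 8 genes. These were the immediate early genes Jun (353 CPM), Btg2 (135 CPM) and Egr1 (224 CPM), the stellate cell genes Dcn (99.6 CPM), Col1a2 (13.8 CPM) and Lrat (11.9 CPM), and Orm3 (2.59 CPM) and Oas1g (2.39 CPM). In the same group, library 4 was lowest for Ncaph2 (33.4 CPM) and library 2 lowest for Igf1 (346 CPM).

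Library 3 without berberine was far above its group for Orm2 (1023 CPM), Orm3 (51.9 CPM), Lcn2 (904 CPM), Cp (1544 CPM), Saa1 (2364 CPM), S100a8 (85.7 CPM) and S100a9 (89.2 CPM), and below it for Gbp2 (1.765 CPM). Library 4 without berberine had the mitochondrial share of 35.4% given above, the lowest Tm7sf2 (38.6 CPM) and the highest Ncaph2 (149 CPM). Library 2 without berberine was highest for Akr1e1 (24.2 CPM), Ncoa4 (17.4 CPM) and Egr1 (34.5 CPM) and lowest for Stat2 (21.9 CPM).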

How the results depend on the processing

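No gene was called under edgeR with median-of-ratios scaling, robust spread, either filter, the 8 libraries alone or mitochondrially encoded genes left out, nor under limma. DESeq2 called 55 genes and 10 for the contrast with the negative controls. Without untreated libraries 3 and 4 together, 1 gene (AW146154) was called in each. Leaving out 1 library gave 0 to 41 calls and 0 to 1 for the contrast: 41 without untreated library 2, 1 without untreated library 1 (4632415L05Rik, also called in the contrast) and 1 without negative control library 2 with berberine (Usp7, and Tmem254a in the contrast). Genes at an unadjusted p under 0.05, 1028 in all libraries, numbered 601 with a filter of 5 FPKM, 670 in the fit to 8 libraries, 1623 with library weights, 1877 without the filter, 670 without untreated libraries 3 and 4, and 630 (without library 2 with berberine) to 2034 (without untreated library 2) when 1 library was left out. For the contrast, 711 in all, they numbered 387 with the filter of 5 FPKM, 1326 with weights, 1537 without the filter, and 463 to 1538 in the leave-outs. The filters test fewer or more genes, and otherwise the cause was not tested. The sample numbers do not show pairing, same-numbered libraries correlating at -0.01, 0.21, 0.06 and 0.10, and 2 of 4 correlating best with their own number. The replicate block gave 0 calls, 986 genes at p under 0.05 and 672 for the contrast.

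Of 2792 values of 97 named genes under alternatives, 24 changed sign, most of them small values or values of a library that stood apart. Without untreated libraries 3 and 4 these were Cpt1a (-0.033), Cyp7a1 (-0.074), Pck1 (-0.087), G6pc (0.45), S100a8 (1.21) and S100a9 (0.64). With library weights they were Cyp7a1 (-0.077), Pck1 (-0.070) and G6pc (0.55), and under quantile normalization Cyp7a1 (-0.022) and G6pc (0.028). G6pc was 0.20 on log2(FPKM + 0.1) and 0.20 on log2(FPKM + 1). Leaving out 1 library spanned -0.014 to 0.27 for Srebf1, -0.10 to 0.42 for Cyp7a1, -0.17 to 0.23 for Pck1, -0.35 to 0.53 for G6pc, -4.10 to 0.17 for Saa1, -4.58 to 0.73 for S100a9, -0.29 to 2.44 for Btg2 and -0.29 to 2.84 for Egr1. The Akr1b10 difference spanned -0.137 to 0.032 FPKM. Low genes shrank on log2(FPKM + 1), Thbs1 to -3.21 and Col1a2 to -0.51.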

Other observations

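The metallothioneins Mt1 and Mt2, which bind zinc and copper, were looked at after their values were seen. Mt1 was at 8.44, 5.52, 70.3 and 34.7 CPM with berberine and 165, 13.1, 506 and 25.8 CPM without it, and Mt2 at 2.04, 1.21, 18.8 and 13.6 CPM with berberine and 23.7, 4.33, 393 and 6.32 CPM without. Both were highest in untreated library 3, the library with the highest acute phase transcripts, and the groups overlapped. In the negative controls Mt2 was at 13.5, 326, 8.75 and 2.53 CPM with berberine and 2.91, 1.98, 15.3 and 2.53 CPM without, with 1 library with berberine far above the others.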
